A study of Danio rerio with 8 samples.

Results

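The genes described here encode proteins of the podocyte slit diaphragm and its anchoring complex, together with the podocyte transcription factor Wt1, measured in whole zebrafish embryos 26 hours after fertilisation. They were chosen by symbol as nphs1, wt1a, wt1b, podxl, kirrel1a, kirrel1b, cd2ap, magi2a and ptpro. All 9 were found, each once, among the 36351 rows of the gene count table, and all 9 passed the filter on low counts that left 22467 genes. RNA came from 4 pools of embryos labelled MZ osgep G177A/G177A, which lacked a wild-type osgep copy of maternal as well as embryonic origin, G177A being the allele present (mutant below), and from 4 pools of wild-type embryos of the same stage. The protocols state that crosses of single pairs and of groups were used, and give neither the number of embryos per pool nor the clutch. The p-values therefore measure the spread between these pools, which may be partly technical.

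Podocytes are epithelial cells that wrap the capillaries of the glomerulus, and the slit diaphragm between their foot processes is the final filter between blood and urine. Nephrin and the Neph proteins span the slit, and Cd2ap and Magi2 help to hold them to the actin cytoskeleton. In zebrafish the podocytes of the pronephros arise from intermediate mesoderm on both sides of the midline, where wt1a and wt1b mark them before a working glomerulus has formed. OSGEP is the catalytic subunit of KEOPS, the complex that makes threonylcarbamoyladenosine in tRNAs reading codons that start with A. In humans, variants of KEOPS genes cause Galloway-Mowat syndrome, which combines microcephaly with an early nephrotic syndrome of podocyte origin.

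The libraries held 21290942 to 27675104 expected counts. Levels are counts per 1000000 counts of a library (CPM) after TMM scaling, and fold changes are mutant over wild type on the log2 scale from edgeR's quasi-likelihood test, called at an adjusted p under 0.05 (Benjamini-Hochberg over all genes tested). The osgep transcript averaged 10.7 ± 2.25 CPM in mutant pools and 19.2 ± 3.24 CPM in wild-type pools (SD, n = 4 each) without overlap, and since the table does not separate alleles this does not check the genotype. The libraries also differed within each genotype in the share of counts on 81 cytoplasmic ribosomal protein genes. Mutant library 1 stood at 16.4%, and wild-type libraries 1 and 3 stood at 15.8% and 14.5%. The other 5 libraries lay between 7.99% and 11.6%. In pooled whole embryos, fewer cells of a type and less RNA per cell cannot be told apart.

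Of the 9 genes, 4 rose in the mutant pools and none fell. The risers were nphs1 (2.82-fold), kirrel1b (1.76-fold), cd2ap (1.41-fold) and kirrel1a (1.33-fold). The calls of cd2ap and kirrel1a were each lost in several fits with 1 library left out. The transcription factor genes wt1a and wt1b, podxl, magi2a and ptpro did not pass. Over all genes tested, 32.2% were called, 15.8% as higher and 16.3% as lower in the mutant. The median log2 fold change was 0.44 over the 9 genes and 0.0042 over all genes tested. The genotypes did not overlap for nphs1 and kirrel1b, 2 of the 9 genes, where 33.7% of all genes tested had no overlap.

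**Figure D1:**
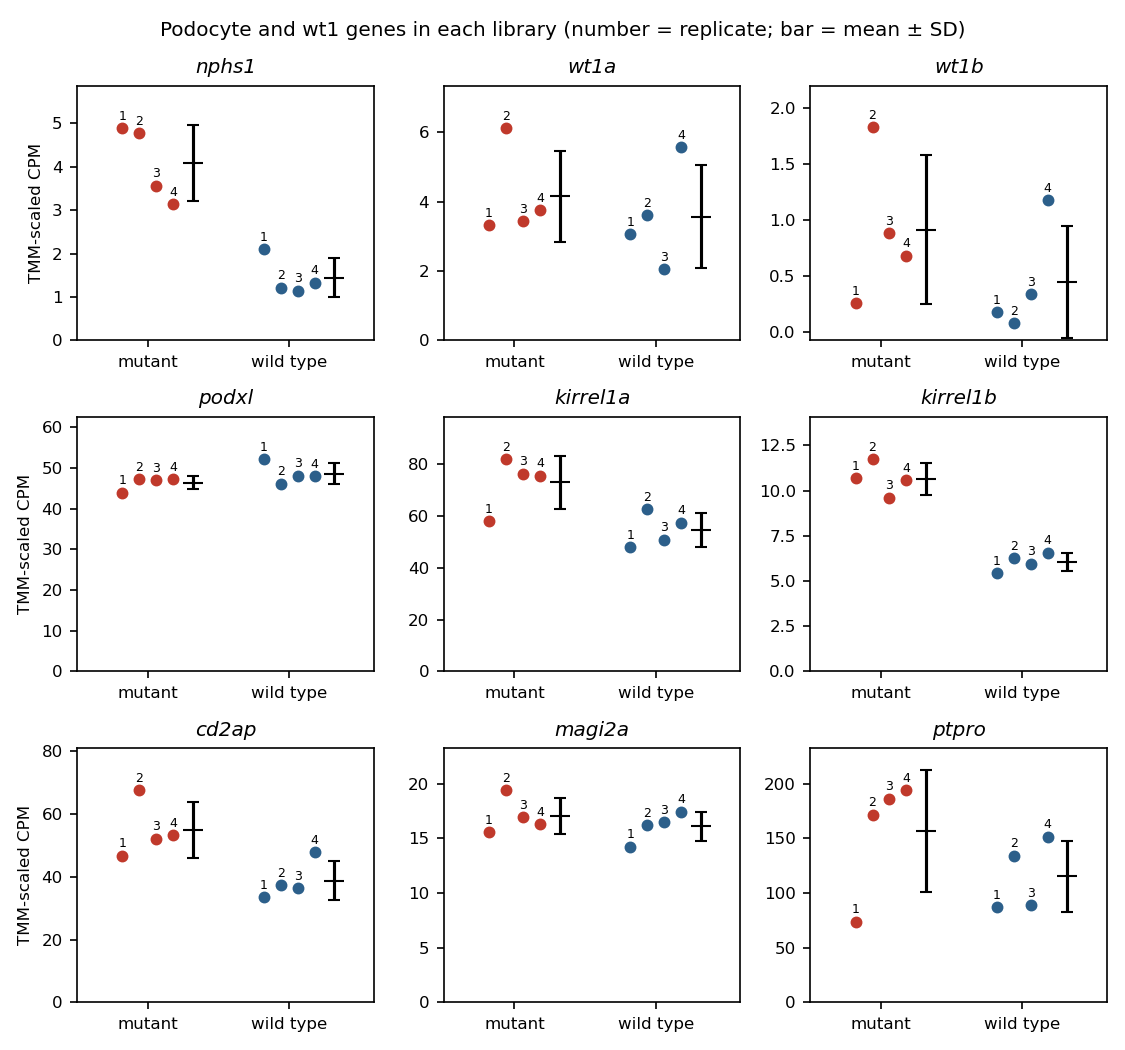
TMM-scaled CPM of each of the 9 genes in the 4 mutant (left, red) and 4 wild-type libraries (right, blue), each point a library numbered by its replicate, with the mean ± SD as a black bar. For nphs1 and kirrel1b every mutant library lies above every wild-type library, while wt1a, wt1b and ptpro spread widely within each genotype.

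nphs1 (ENSDARG00000060758) encodes nephrin, the adhesion molecule that forms the slit diaphragm and whose human gene is mutated in congenital nephrotic syndrome. It measured 4.88, 4.77, 3.56 and 3.14 CPM in mutant pools 1 to 4, and 2.098, 1.21, 1.14 and 1.33 CPM in wild-type pools 1 to 4. Every mutant pool lay above the highest wild-type pool. The counts behind these levels were few, with 404 over the mutant libraries and 137 over the wild-type libraries. The log2 fold change was 1.495 (SE 0.27, 95% interval 0.88 to 2.11, adjusted p = 0.00344), the largest among the 9 genes, and it lay above that of 94.6% of all genes tested. Among the 5 libraries with a low ribosomal protein share, 3 mutant and 2 wild-type, the log2 fold change was 1.61. The 3 libraries with a high share hold a single mutant library, and the value there was 1.6.

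The Neph1 paralogues kirrel1a and kirrel1b encode immunoglobulin superfamily proteins that bind nephrin across the slit. kirrel1b (ENSDARG00000056998) measured 10.7, 11.7, 9.61 and 10.6 CPM in mutant pools 1 to 4, against 5.42, 6.27, 5.95 and 6.58 CPM in wild-type pools 1 to 4. The spread within a genotype was narrow and the genotypes were well apart (log2 fold change 0.81, SE 0.13, adjusted p = 0.00173). kirrel1a (ENSDARG00000001634) stood at 58.0, 81.8, 76.3 and 75.6 CPM in mutant pools, against 47.9, 62.6, 50.9 and 57.4 CPM in wild-type pools. Mutant pool 1 was the lowest of its genotype and lay below wild-type pool 2, so the genotypes overlapped (log2 fold change 0.41, SE 0.13, adjusted p = 0.0405). This call was lost without mutant library 2, 3 or 4 or without wild-type library 1, 3 or 4 (adjusted p from 0.0535 to 0.1096), and also without the low-count filter (0.0546) and with upper-quartile scaling (0.0629).

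The paralogues differed in the size of their rise. The log2 ratio of kirrel1a to kirrel1b counts, taken within each library and so free of scaling between libraries, was 2.77 ± 0.23 in mutant pools and 3.17 ± 0.10 in wild-type pools (SD, n = 4 each). The ratio was lower in every mutant pool than in any wild-type pool, by 0.40 on average. The exact two-sided permutation p was 0.0286, which no arrangement of 4 and 4 libraries can undercut, and 0.0476 after adjustment over the 5 ratios compared.

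cd2ap (ENSDARG00000015224) encodes an adaptor that links nephrin to actin and that many other cell types also use. It measured 46.7, 67.5, 52.1 and 53.2 CPM in mutant pools 1 to 4, and 33.6, 37.3, 36.3 and 47.9 CPM in wild-type pools 1 to 4. Mutant pool 1 lay just below wild-type pool 4, and the remaining mutant pools lay above all wild-type pools (log2 fold change 0.50, SE 0.15, adjusted p = 0.0321). The call was lost without mutant library 2, 3 or 4 or without wild-type library 1, 2 or 3 (adjusted p from 0.0592 to 0.0881), and among the 5 libraries with a low ribosomal protein share (0.0780).

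Neither wt1 gene passed. Wt1 is a zinc finger transcription factor needed for podocyte formation, and zebrafish wt1a is needed for the glomerulus while wt1b overlaps with it in expression. wt1a (ENSDARG00000031420) measured 3.32, 6.11, 3.45 and 3.75 CPM in mutant pools 1 to 4, against 3.06, 3.60, 2.05 and 5.56 CPM in wild-type pools 1 to 4. The genotypes overlapped over most of their range, with mutant pool 2 and wild-type pool 4 well above the others. The log2 fold change was 0.22 (SE 0.33, adjusted p = 0.666), with a 95% interval from −0.54 to 0.97, so neither a modest fall nor a rise close to 2-fold (fold interval 0.689 to 1.96) can be told from no difference. Without mutant library 2 the estimate was −0.02.

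wt1b (ENSDARG00000007990) was near the limit of detection, with 89 counts over the mutant libraries and 43 over the wild-type libraries. It measured 0.253, 1.83, 0.881 and 0.678 CPM in mutant pools 1 to 4, and 0.175, 0.0783, 0.333 and 1.18 CPM in wild-type pools 1 to 4. Its deposited counts were not whole, so some of its reads were divided between features. Most of the wild-type counts came from pool 4, and most of the mutant counts from pools 2 and 3. The log2 fold change of 1.02 had an SE of 0.82 and a 95% interval from −0.84 to 2.88 (adjusted p = 0.387). Without wild-type library 4 it was 2.21 and without mutant library 2 it was 0.45, and neither passed. The log2 ratio of wt1a to wt1b counts averaged 2.43 ± 0.84 in mutant pools and 3.48 ± 1.38 in wild-type pools, a difference within their spread (exact permutation test, p = 0.2, adjusted p = 0.25 over the 5 ratios).

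podxl (ENSDARG00000031228) encodes podocalyxin, the charged sialomucin of the podocyte surface, which endothelium and other epithelia also carry. It measured 43.9, 47.2, 47.0 and 47.3 CPM in mutant pools 1 to 4, and 52.1, 46.2, 48.2 and 48.1 CPM in wild-type pools 1 to 4. This was the narrowest spread of the 9 genes, at 3.53% of the mean among mutant pools and 5.15% among wild-type pools. The log2 fold change was −0.07 (SE 0.08, 95% interval −0.24 to 0.11, adjusted p = 0.549).

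magi2a (ENSDARG00000021590), a scaffold gene whose mammalian counterpart binds nephrin and is also a synaptic scaffold, did not pass either. It stood at 15.6, 19.4, 16.9 and 16.3 CPM in mutant pools, against 14.3, 16.2, 16.5 and 17.5 CPM in wild-type pools. The genotypes overlapped almost fully (log2 fold change 0.08, SE 0.11, 95% interval −0.18 to 0.34, adjusted p = 0.63). For podxl and magi2a the intervals leave room only for small differences, between 0.844-fold and 1.08-fold for podxl and between 0.884-fold and 1.27-fold for magi2a.

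ptpro (ENSDARG00000110470) encodes a receptor tyrosine phosphatase of the podocyte surface, known as GLEPP1, that neurons also use. It measured 73.8, 171.6, 186 and 193.7 CPM in mutant pools 1 to 4, against 87.2, 134, 88.8 and 151.5 CPM in wild-type pools 1 to 4. The 3 lowest pools, mutant pool 1 and wild-type pools 1 and 3, were the 3 with a ribosomal protein share of 14.5% or more. The log2 fold change over all libraries was 0.44 (SE 0.31, adjusted p = 0.327). Among the 5 libraries with a low share it was 0.39 (SE 0.098, adjusted p = 0.0291), and among the 3 with a high share, with a single mutant library, it was −0.23 (SE 0.080, adjusted p = 0.0492). With the share entered in the model of all 8 libraries it was 0.20 (SE 0.15, adjusted p = 0.308). Without mutant library 1 it was 0.67 and passed (adjusted p = 0.0331). In each genotype wt1a, wt1b, kirrel1b, cd2ap and magi2a were highest in the pool with the lowest share, mutant pool 2 and wild-type pool 4. With the share in the model the log2 fold changes of wt1a and wt1b were 0.08 and 0.58, neither past the threshold.

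**Figure D2:**
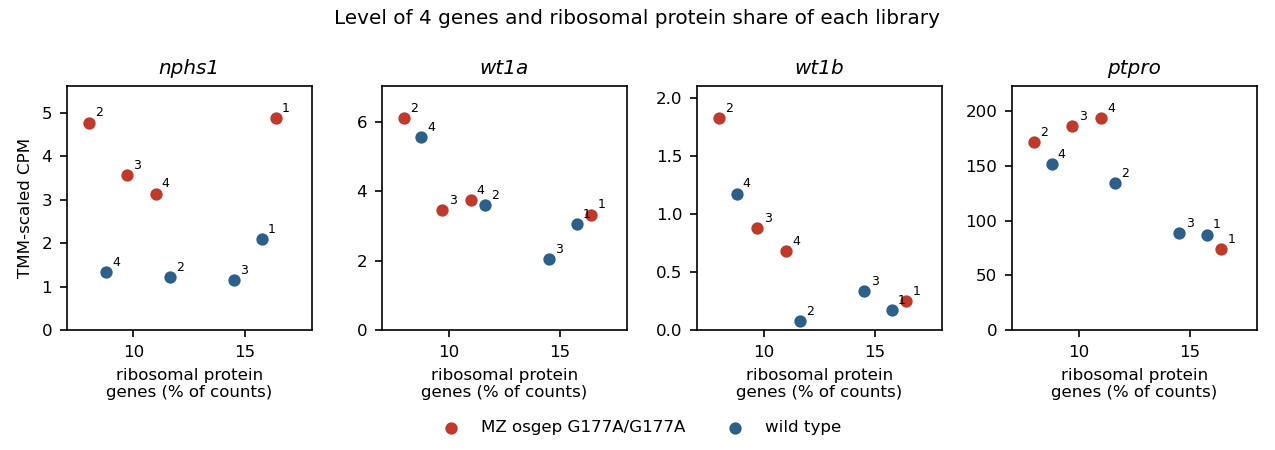
TMM-scaled CPM of nphs1, wt1a, wt1b and ptpro (vertical) against the percentage of counts on ribosomal protein genes (horizontal) in the mutant (red) and wild-type libraries (blue), numbered by replicate. ptpro is lowest in the 3 libraries with a share of 14.5% or more whatever their genotype, wt1a and wt1b are highest in mutant library 2 and wild-type library 4, and nphs1 separates by genotype at both ends of the share.

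**Figure D3:**
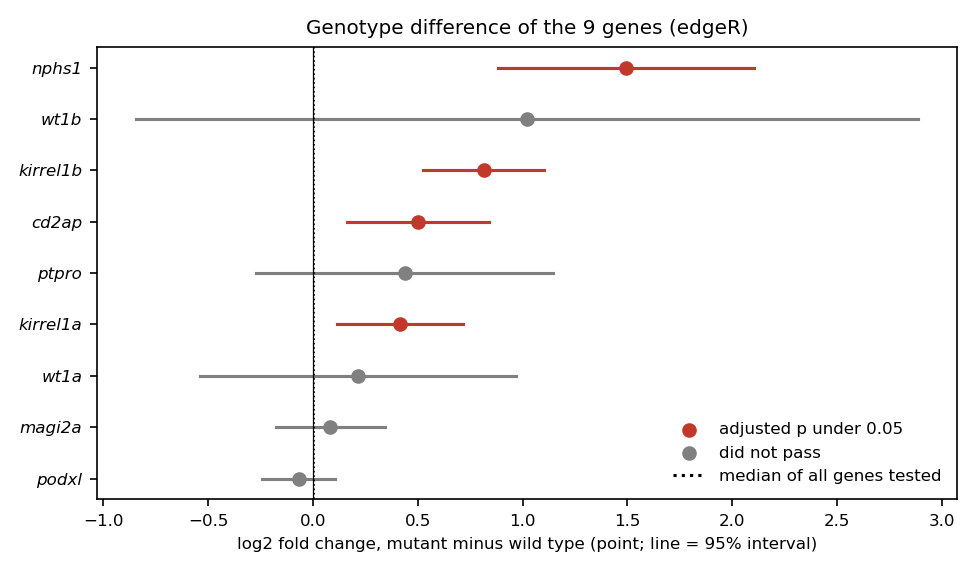
Log2 fold change, mutant minus wild type, of the 9 genes (point) with its 95% interval (line), red where the adjusted p is under 0.05 and grey where it is not, and the median of all genes tested as a dotted line. nphs1 lies farthest from 0 at 1.495, the interval of wt1b is the widest, and those of podxl and magi2a are narrow and include 0.

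The rise of nphs1 was set against other podocyte genes within each library. Counts are not divided by gene length here, so the ratios are read only between genotypes. The log2 ratio of nphs1 to wt1a was −0.0026 ± 0.41 in mutant pools and −1.24 ± 0.69 in wild-type pools, a difference of 1.24 (exact permutation test, p = 0.0286, adjusted p = 0.0476 over 5 ratios). Against podxl it was −3.52 ± 0.35 in mutant pools and −5.09 ± 0.33 in wild-type pools, a difference of 1.57 with the same p. Both ratios were higher in every mutant pool than in any wild-type pool. Since podxl itself hardly differed (log2 fold change −0.07), its ratio mostly restates the rise of nphs1 (1.495) and is no separate evidence. wt1a did not pass either (log2 fold change 0.22), so its ratio also largely restates that rise. Against the sparse wt1b the difference was 0.19 with overlapping genotypes (exact permutation test, p = 0.83).

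In the RefSeq annotation of another assembly, GRCz12tu, the nphs1 gene model overlaps that of its neighbour kirrel3l on chromosome 15, and the use of strand in counting is not given in the sources used here. kirrel3l, a further member of the Neph family, averaged 113 ± 13 CPM in mutant pools and 87.2 ± 3.18 CPM in wild-type pools, and rose 1.295-fold (adjusted p = 0.02045). The log2 ratio of nphs1 to kirrel3l counts was −4.80 ± 0.44 in mutant pools and −5.94 ± 0.39 in wild-type pools, a difference of 1.14 without overlap (exact permutation test, p = 0.0286; chosen after the values were seen). Whether reads of kirrel3l were counted for nphs1 was not tested. Models of wt1b, kirrel1b, cd2ap and ptpro also overlap other protein-coding models there, while those of wt1a, podxl, kirrel1a and magi2a do not. podxl, magi2a and ptpro share chromosome 4 with osgep.

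Of the other genes of the slit diaphragm and podocyte structure, most did not pass. Of 34 listed, 29 were in the table and 26 were tested. Of these, 4 rose, 1 fell and 21 did not pass, with a median log2 fold change of 0.07. Most genes of the whole fit did not pass either, with 32.2% called, 15.8% as higher and 16.3% as lower. kirrel3a, a Neph2 gene, averaged 5.87 ± 0.97 CPM in mutant pools and 2.51 ± 0.55 CPM in wild-type pools (log2 fold change 1.23, SE 0.21, adjusted p = 0.00293). arhgdig, a GDP dissociation inhibitor gene for small GTPases, rose (98.0 ± 10.9 CPM in mutant pools and 69.4 ± 7.19 CPM in wild-type pools). arhgdia, of the same family, did not pass (205 ± 6.38 CPM in mutant pools and 195 ± 11.5 CPM in wild-type pools, adjusted p = 0.541). slc9a3r1a, of the NHERF scaffold family that tethers podocalyxin to ezrin in mammals, rose as well (18.2 ± 2.39 CPM in mutant pools and 11.1 ± 2.79 CPM in wild-type pools, with overlap). clic5a, whose mammalian counterpart is a chloride intracellular channel protein of the foot process, fell to 0.904 ± 0.091 CPM in mutant pools, against 2.27 ± 0.53 CPM in wild-type pools (log2 fold change −1.33, SE 0.25, adjusted p = 0.00436). Its paralogue clic5b lay the other way and did not pass (log2 fold change 0.82, SE 0.36, adjusted p = 0.113). clic5b averaged 7.04 ± 2.18 CPM in mutant pools and 3.97 ± 2.07 CPM in wild-type pools. With the ribosomal protein share in the model 11 of the 26 passed, where 52.25% of all genes tested passed.

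Genes of the glomerular basement membrane and its receptors moved in both directions. All 19 listed were tested, of which 5 rose, 4 fell and 10 did not pass (median log2 fold change 0.33). Across all genes tested, 15.8% were called higher and 16.3% lower. In mammals the mature glomerular basement membrane holds the laminin chains encoded by LAMA5, LAMB2 and LAMC1 and the collagen chains encoded by COL4A3, COL4A4 and COL4A5, and the zebrafish counterparts did not move together. lamb2, col4a3 and col4a4 fell and lama5 rose. lamc1 (477 ± 136 CPM in mutant pools and 306 ± 64.7 CPM in wild-type pools, adjusted p = 0.0629) and col4a5 (320.2 ± 89.1 CPM in mutant pools and 316 ± 68.8 CPM in wild-type pools, adjusted p = 0.9575) did not pass. lamb2 measured 48.0 ± 4.35 CPM in mutant pools and 94.6 ± 7.80 CPM in wild-type pools (log2 fold change −0.98, SE 0.097, adjusted p = 0.000206). col4a3 measured 9.69 ± 1.99 CPM in mutant pools and 24.2 ± 4.56 CPM in wild-type pools, and its partner col4a4 measured 8.0 ± 1.89 CPM in mutant pools and 21.5 ± 3.10 CPM in wild-type pools. The deposited counts of this pair were not whole in most libraries, as RSEM gives where it divides reads between features, so their levels carry that uncertainty. cd151, a tetraspanin gene whose product holds laminin-binding integrins, fell to 9.84 ± 2.13 CPM in mutant pools, against 23.3 ± 1.52 CPM in wild-type pools.

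The risers of this list were lama5, agrn, nid1b, nid2a and ilk, genes of widely expressed laminin, agrin, nidogen and integrin-adhesion proteins. nid1b measured 121 ± 21.5 CPM in mutant pools and 64.5 ± 11.0 CPM in wild-type pools without overlap. lama5, whose product joins the lamb2 product in the laminin of the mature glomerulus, measured 357 ± 127 CPM in mutant pools and 160 ± 42.1 CPM in wild-type pools with overlap. These genes are used by many tissues, and the pools do not show in which of them the levels differed. With the ribosomal protein share in the model, 15 of the 19 genes passed, beside the same 52.25% of all genes.

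Among 16 other transcription factor genes of podocytes and pronephros, 6 rose, 2 fell and 8 did not pass (median log2 fold change 0.43). Calls over all genes tested stood at 15.8% higher and 16.3% lower. The pools of whole embryos do not show in which tissues the levels of these genes differed. foxc1a, a forkhead gene needed for podocyte formation together with wt1a, measured 48.5, 51.3, 53.7 and 52.0 CPM in mutant pools 1 to 4, against 37.5, 27.1, 31.8 and 33.3 CPM in wild-type pools (log2 fold change 0.66, SE 0.11, adjusted p = 0.0022). mafba, a MAF gene of late podocyte differentiation, averaged 50.6 ± 9.38 CPM in mutant pools and 32.9 ± 2.97 CPM in wild-type pools without overlap (log2 fold change 0.62, SE 0.15, adjusted p = 0.0116). osr1, an early regulator of intermediate mesoderm, measured 12.5, 10.4, 10.1 and 11.3 CPM in mutant pools, against 4.41, 2.90, 2.86 and 6.23 CPM in wild-type pools (log2 fold change 1.43, SE 0.26, adjusted p = 0.00365). lmx1bb, a LIM homeobox gene of podocytes and neurons, did not pass (16.6 ± 3.71 CPM in mutant pools and 15.5 ± 2.06 CPM in wild-type pools, adjusted p = 0.731).

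The fallers were lhx1a, a LIM homeobox gene of the kidney field and of neurons, and rbpja, the nuclear effector gene of Notch signalling. lhx1a averaged 5.71 ± 0.51 CPM in mutant pools and 13.3 ± 1.56 CPM in wild-type pools (log2 fold change −1.22, SE 0.13, adjusted p = 0.000338). rbpja averaged 41.8 ± 1.77 CPM in mutant pools and 53.0 ± 1.19 CPM in wild-type pools. hnf1ba, hnf1bb and foxc1b completed the risers, and pax2a did not pass (50.5 ± 5.09 CPM in mutant pools and 50.7 ± 3.28 CPM in wild-type pools, adjusted p = 0.9745).

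**Figure D4:**
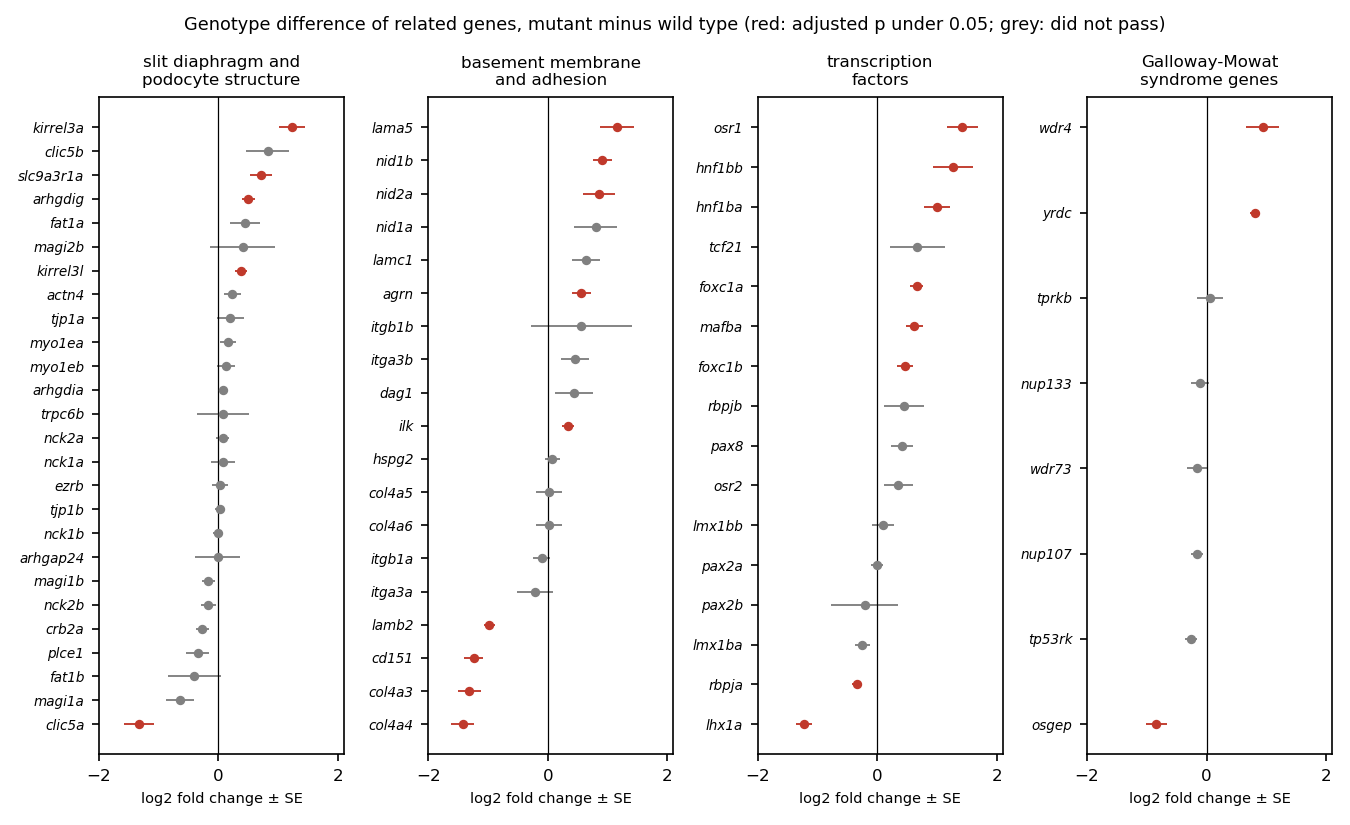
Log2 fold change, mutant minus wild type, ± SE for each tested gene of 4 related lists, red where the adjusted p is under 0.05 and grey where it is not. The basement membrane list spans from col4a4, col4a3, cd151 and lamb2 on the lower side to lama5 and nid1b on the higher side, and osr1 heads the transcription factors while lhx1a closes them.

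Of the 11 genes listed for Galloway-Mowat syndrome, 8 were in the table and tested. Of these, 2 rose and 1 fell (median log2 fold change −0.14), beside 32.2% called among all genes tested. yrdc, which makes the precursor of the tRNA modification, and wdr4, which encodes a partner of a tRNA methyltransferase, rose, and osgep fell. wdr4 measured 18.6 ± 4.61 CPM in mutant pools and 9.72 ± 3.29 CPM in wild-type pools (log2 fold change 0.94, SE 0.27, adjusted p = 0.028). wdr73, tp53rk, tprkb, nup107 and nup133 did not pass.

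Several of the 9 genes are also used by other tissues, whose markers are given here beside the 32.2% of all genes called. Of 9 neuronal markers tested, 6 fell and none rose. Their summed level ranged from 540 to 643 CPM in mutant pools and from 737 to 914 CPM in wild-type pools. A large part of this sum was elavl3. It averaged 449.5 CPM in mutant pools and 550.4 CPM in wild-type pools without overlap, but did not pass (adjusted p = 0.0779). Of 11 pronephric tubule markers tested, 2 rose and 1 fell, with summed levels from 329.7 to 521 CPM in mutant pools and from 224 to 361 CPM in wild-type pools. Of 10 endothelial markers, 2 rose and 2 fell, with summed levels from 224 to 253 CPM in mutant pools and from 162 to 201 CPM in wild-type pools. A large part of that gap came from etv2, which averaged 52.4 CPM in mutant pools and 20.3 CPM in wild-type pools. clec14a also rose, and kdrl and pecam1 fell. The part of these or other tissues in the levels of the 9 genes, kirrel1a and kirrel1b included, was not tested.

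The genes whose levels followed each of the 9 most closely over the 8 libraries were found by Pearson's r of log2 CPM among 14282 other genes. The libraries differ in genotype and in ribosomal protein share, which can enter r for any pair of genes, so the values are descriptions. nphs1 was followed most closely by ugt1a7 (r = 0.992, and 0.944 within genotypes) and vent (r = 0.990, and 0.930 within genotypes), which both rose. kirrel1b was followed by dhrs1 (r = 0.997) and als2b (r = 0.993), and cd2ap by abca12 and zfpm1 (r = 0.996 each), and these 4 rose as well. wt1a was followed by prkci and patj (r = 0.967 each), wt1b by otog and tprb (r = 0.98 and 0.97) and ptpro by tfap4 (r = 0.993). None of these 5 passed the test of genotype. For kirrel1a they were rapgef2 and lin7c (r = 0.990 and 0.988), for magi2a emilin2b and bahcc1b (r = 0.976 and 0.973) and for podxl smad6b and nlrc3l (r = 0.948 and 0.924). None of these passed either, although kirrel1a itself was called.

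**Figure D5:**
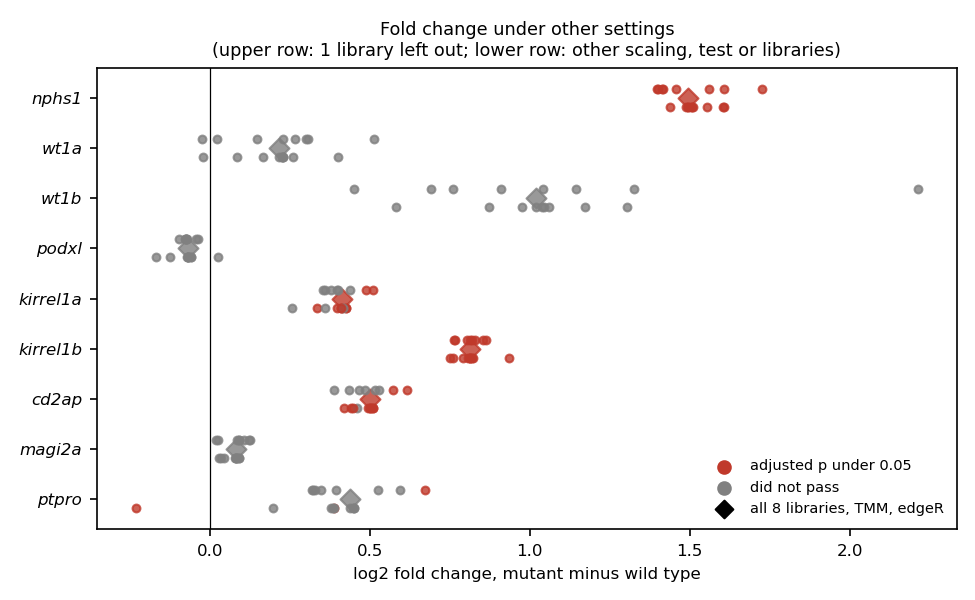
Log2 fold change, mutant minus wild type, of the 9 genes in the fit of all 8 libraries (diamond), with 1 library left out (upper points) and with another scaling, test, filter or set of libraries (lower points), red where the adjusted p is under 0.05. nphs1 and kirrel1b are red in all of these settings, while kirrel1a and cd2ap are grey in several, and wt1a, podxl and ptpro have points on both sides of 0.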

How the data were processed

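The deposited table holds RSEM expected counts per gene for 8 rRNA-depleted, random-primed libraries, not scaled between libraries by the authors. Per the submitters' processing notes the tools were Trimmomatic, STAR 2.7 and RSEM and the build was danRer11. Annotation and strand setting: not given in the sources used here. Genotype and replicate number came from the titles, and columns were matched by library name. Expected counts were rounded, filtered with filterByExpr, scaled by TMM and tested with edgeR 4.0.16 (glmQLFit robust, glmQLFTest) in R 4.3.3, two-sided, over the whole table. SE is the log2 fold change divided by the root of F. Ratios within a library used log2 counts with 0.5 added and exact two-sided permutation tests in Python. The procedure was tested on simulated data. Alternatives were DESeq2 1.42.0, limma-voom (limma 3.58.1), other scalings, no filter, unrounded counts, a replicate block, leaving out each library and, chosen after seeing the data, the ribosomal protein share as a covariate and the libraries split at 13% of that share. No pair of libraries agreed within sampling noise (lowest chi-square per degree of freedom 5.80, wild-type pools 1 and 3).

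The 9 genes and all lists were chosen with earlier results of these data known. Named besides the 9 are osgep, up to 4 genes per list with the smallest p among those called, lmx1bb, mafba and foxc1a. Also named are up to 2 genes most like each of the 9 whose mean log2 CPM was 1 or more. pax2a, lama5, lamc1, col4a5, nid1b, kirrel3l, clic5b, arhgdia, slc12a1 and elavl3 were singled out after their values were seen. The RefSeq table of GRCz12tu served for gene order only. Gene and protein sequences were not used here. Some items that this rule covers are not reported here.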

Additional observations from a re-analysis of the deposited data

Results flagged for a closer look

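In 20 groups of 4 libraries (the 9 genes and osgep in each genotype), 2 libraries lay far from the others of their genotype relative to its range, where chance gives about 1 in 20 groups. wt1a in mutant library 2 stood at 6.11 CPM, above the other mutant libraries, which ranged up to 3.75 CPM. podxl in mutant library 1 stood at 43.9 CPM, below the other mutant libraries, which ranged up to 47.3 CPM.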

How the results depend on the processing

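The calls of nphs1 and kirrel1b held under every alternative run, with log2 fold changes between 1.40 and 1.73 for nphs1 and between 0.76 and 0.86 for kirrel1b when 1 library was left out. The other calls were less firm, and the causes below were not tested. kirrel1a lost its call without a filter (0.42), with upper-quartile scaling (0.36) and among the 3 libraries with a high ribosomal protein share (0.26), and cd2ap among the 5 with a low share (0.46). In the low-share libraries wt1a stood at −0.0216, podxl at 0.026 and ptpro at 0.39, and in the high-share libraries ptpro stood at −0.23 and osgep, no longer called, at −0.25. wt1b failed the filter in the high-share libraries and has no value there. The slit diaphragm list, with 5 calls, gave 9 in the high-share libraries and 11 with the share in the model, and the basement membrane list, with 9, gave 15 with the share in the model. Calls over all genes also went up, to 9724 (41.39%) in the high-share libraries and 11740 (52.25%) with the share in the model, against 7225. The high-share fit has 1 mutant library, taken to vary like the others.

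With 1 library left out, the log2 fold change ranged from −0.0237 to 0.51 for wt1a, from 0.35 to 0.51 for kirrel1a, from 0.39 to 0.62 for cd2ap and from 0.32 to 0.67 for ptpro. The number of the 9 genes called ranged from 2 to 5 (2 without mutant library 2, 3 or 4 or wild-type library 1 or 3, and 5 without mutant library 1), and in the slit diaphragm list from 3 to 7 (3 without wild-type library 2, and 7 without mutant library 1). The difference in log2 ratio ranged from −0.48 to −0.29 for kirrel1a to kirrel1b, from 0.97 to 1.47 for nphs1 to wt1a, from 1.45 to 1.73 for nphs1 to podxl, from 0.96 to 1.32 for nphs1 to kirrel3l and from −0.50 to 0.66 for nphs1 to wt1b, which was −0.39 without mutant library 1. For wt1a to wt1b it ranged from −1.47 (without wild-type library 4) to −0.48 (without wild-type library 2). The exact p of nphs1 to podxl was 0.0286 whichever library was left out, the smallest that 3 against 4 libraries allow. It was 0.0571 for nphs1 to wt1a and nphs1 to kirrel3l without any 1 mutant library, and for kirrel1a to kirrel1b without any 1 wild-type library, and 0.0286 otherwise.

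Same-numbered pools deviated together unevenly (r = 0.65, 0.17, −0.27 and 0.09 for numbers 1 to 4), and mutant pool 2 correlated best with wild-type pool 4. The labels give only a number, and these values do not settle whether same-numbered pools share a clutch or day. A fit with the replicate block called 7193 genes against 7225, among them the same 4 of the 9 genes. Under the replicate block the ratio differences were −0.40 for kirrel1a to kirrel1b, 1.24 for nphs1 to wt1a, 1.57 for nphs1 to podxl and 1.14 for nphs1 to kirrel3l, each with an exact p of 0.125, the smallest that 4 pairs allow. Depth limits nphs1 and wt1b, whose counts are few.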

Other observations

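Markers of other mesoderm are given beside the 32.2% of all genes called. Of 5 markers of epicardium and mesothelium, 1 rose and 1 fell, and of 10 skeletal muscle markers 7 fell, with summed levels from 1752 to 2346 CPM in mutant pools and from 5256 to 7925 CPM in wild-type pools. tbx18, a T-box gene of the epicardium and of somites, averaged 17.3 ± 3.34 CPM in mutant pools and 31.9 ± 7.48 CPM in wild-type pools (log2 fold change −0.88, SE 0.21, adjusted p = 0.0125). hand2, a bHLH gene of lateral plate mesoderm, averaged 11.0 ± 1.04 CPM in mutant pools and 5.88 ± 2.46 CPM in wild-type pools (log2 fold change 0.90, SE 0.26, adjusted p = 0.0271). etv2, an early endothelial transcription factor gene, averaged 52.4 ± 5.99 CPM in mutant pools and 20.3 ± 4.00 CPM in wild-type pools (log2 fold change 1.37, SE 0.15, adjusted p = 0.000371). The vascular receptor gene kdrl fell (18.9 ± 2.08 CPM in mutant pools and 25.3 ± 2.83 CPM in wild-type pools, adjusted p = 0.0279).

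slc12a1, a salt transporter gene of the pronephric tubule, measured 3.54, 18.02, 4.02 and 2.36 CPM in mutant pools 1 to 4, and 0.437, 0.666, 0.667 and 3.17 CPM in wild-type pools 1 to 4. It was highest in mutant pool 2 and wild-type pool 4, as wt1a, wt1b, kirrel1b, cd2ap and magi2a were, and did not pass (adjusted p = 0.0526). The endocytic receptor gene cubn fell (4.08 ± 0.53 CPM in mutant pools and 6.09 ± 0.44 CPM in wild-type pools, adjusted p = 0.0194), while its partner gene lrp2a rose (78.9 ± 14.5 CPM in mutant pools and 57.4 ± 5.22 CPM in wild-type pools, adjusted p = 0.0388).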
